A study of Sus scrofa with 12 samples.

Results

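The 10 genes described here encode the blood vessel growth factor VEGFA, its receptors KDR and FLT1, the angiopoietins ANGPT1 and ANGPT2, the angiopoietin receptor TEK, the related receptor TIE1, and 3 proteins that mark endothelial cells, PECAM1, CDH5 and VWF. They were taken from the gene expression table by exact symbol. All 10 were found among its 29884 genes, and all 10 were among the 12260 genes that passed the filter of at least 1 FPKM (fragments scaled to transcript length and library depth) in at least 3 libraries. The selection rule used symbols and no threshold on a measured value.

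The left ovaries of 6 multiparous sows from 1 commercial herd were sequenced, all removed 4 days after delivery number 4 and frozen. The SLS group (small litter size, 8.48 ± 0.53 piglets per litter) held ovaries ZD2, ZD3 and ZD12. The LLS group (large litter size, 16.19 ± 0.43) held ZD5, ZD7 and ZD8, so that n = 3 in each group, with 1 gene library and 1 small RNA library per ovary. No treatment was applied, the sows' age in months and breed were not given in the sources used here, and a whole ovary mixes follicles, corpora lutea, stroma and vessels. P-values measure the spread between these ovaries. In bulk tissue, fewer cells of a type and less RNA per cell cannot be told apart.

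VEGFA is secreted by tissue that lacks oxygen and by steroid-producing cells, and it drives endothelial cells to divide and migrate through the receptor tyrosine kinase KDR. FLT1 binds VEGFA more tightly but signals weakly, and its soluble form traps the ligand. ANGPT1 keeps vessels stable through TEK, while ANGPT2 can block that signal and loosens vessels for sprouting or regression. The corpus luteum, which forms from the ovulated follicle, is among the most richly vascularised tissues of the adult, and its vessels grow and regress with each cycle.

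The name under which the genes were grouped refers to luteal vessels, and the levels bore this out only in part. In 5 ovaries, 6 genes of luteal steroid-producing cells (STAR, CYP11A1, HSD3B1, SCARB1, LHCGR and PTGFR) summed to between 9167 and 12191 FPKM. In the LLS ovary ZD8 they summed to 123 FPKM, and each of the 6 was lowest there. All 10 vascular genes were still measured in ZD8, at 1.43 to 42.2 FPKM. They are therefore called endothelial and angiogenic genes of the ovary below. Of the markers of other cells, the theca genes CYP17A1 and INSL3 summed to 415 FPKM in ZD8 and to 9.31 to 74.4 FPKM in the other ovaries, and all 8 oocyte genes were highest in ZD8. Of the luteal genes, LHCGR was also lower in every LLS ovary than in SLS (22.5, 24.2 and 10.4 against 27.8, 70.5 and 46.1 FPKM, log2 fold change -1.28, and -0.92 without ZD8, limma adjusted p = 0.999 and 0.679). Of 7 granulosa genes, the inhibin subunit INHA was likewise lower (285, 162 and 66.4 against 553, 376 and 726 FPKM, log2 fold change -1.86, and -1.30 without ZD8, limma adjusted p = 0.999 and 0.355). Over all tested genes, 3.17% were lower in LLS without overlap, as LHCGR and INHA were. The granulosa list summed to 391 to 882 FPKM in SLS, most of it INHA, and to 170 to 323 FPKM in LLS. Of its 6 genes that passed the filter, 4 were higher and 2 lower in LLS, with a median log2 fold change of 0.49. In ZD8, 3 of these 6 (FSHR, AMH and FOXL2) were highest and 1 (INHA) was lowest. The 7 stroma genes summed to 3786 to 9601 FPKM in SLS and 3425 to 4782 FPKM in LLS, with the sum lowest in ZD8. By single genes, 3 of the 7 were lowest in ZD8 (COL1A1, COL1A2 and COL3A1) and 3 were highest there (DCN, PDGFRA and TCF21). The part of these cells in the differences below was not tested. With luteal transcripts nearly absent, it is open to doubt whether the library labelled ZD8 carries the right label or was made from the same part of the ovary as the others, which was not tested and bears on every LLS value. Because ZD8 stood apart, the differences between groups are also given without it. As recovered by calculation from the FPKM values, the gene libraries held 32272803 reads in ZD8 and 51703531 to 60903268 reads in the others. The values of the 10 genes rested on 237 recovered reads (ANGPT1 in ZD8) to 67297 (VWF in ZD7).

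The levels spanned a wide range. VWF had the highest mean over the 6 ovaries (78.5 FPKM), followed by PECAM1 (73.8 FPKM), KDR (58.4 FPKM), CDH5 (48.9 FPKM), VEGFA (28.1 FPKM), FLT1 (16.7 FPKM), TEK (9.66 FPKM), TIE1 (6.70 FPKM), ANGPT1 (2.22 FPKM) and ANGPT2 (1.76 FPKM). Among neighbours in this order, only the ranges of TIE1 (4.48 to 8.41 FPKM) and ANGPT1 (1.10 to 3.43 FPKM) lay apart. VEGFA exceeded FLT1, TEK exceeded TIE1 and TIE1 exceeded ANGPT1 in 6 of 6 ovaries, whereas VWF exceeded PECAM1 in 3 ovaries and ANGPT1 exceeded ANGPT2 in 3.

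VEGFA, on the plus strand of chromosome 7 at chr7:38746393-38762282 (Sscrofa11.1), was at 27.1, 28.7 and 22.3 FPKM in SLS, here and below in the order ZD2, ZD3, ZD12. In LLS it was at 41.5, 38.0 and 11.3 FPKM, in the order ZD5, ZD7, ZD8. The group means were 26.0 ± 3.36 and 30.2 ± 16.5 FPKM (SD, n = 3). Two-sided limma tests gave a log2 fold change in LLS of 0.02 (SE 0.47, adjusted p = 0.999). The LLS ovaries ZD5 and ZD7 lay above every SLS ovary and ZD8 lay below all of them, so the groups overlapped. Without ZD8 the log2 fold change was 0.60 (SE 0.24), with a limma p of 0.0306 before and 0.726 after adjustment over all genes tested.

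KDR, the main signalling receptor for VEGFA (minus strand, chr8:41809116-41856379), was at 64.1, 63.5 and 42.4 FPKM in SLS and at 68.7, 90.1 and 21.6 FPKM in LLS. Its means were 56.7 ± 12.3 and 60.1 ± 35.1 FPKM, with a log2 fold change of -0.12 (SE 0.51). FLT1, the decoy-like receptor (minus strand, chr11:5620698-5797095), was at 16.0, 16.8 and 13.1 FPKM in SLS and at 22.5, 23.3 and 8.16 FPKM in LLS. Both receptors had the arrangement of VEGFA, with ZD5 and ZD7 highest of the 6 and ZD8 lowest. Without ZD8, the log2 fold change of FLT1 was 0.56 and that of KDR was 0.49, with limma adjusted p = 0.791 and 1. FLT1 kept a narrow proportion to VEGFA within a library, between 0.543 and 0.615 of the VEGFA level in 5 ovaries and 0.724 in ZD8.

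The angiopoietins were the 2 genes with the lowest levels. ANGPT1 (plus strand, chr4:29925203-30233434) was at 1.10, 3.43 and 2.59 FPKM in SLS and at 2.70, 2.09 and 1.43 FPKM in LLS, and ZD2 was the lowest of all ovaries. Its log2 fold change was -0.09 (SE 0.36), and 0.07 without ZD8. ANGPT2 (minus strand, chr15:37544177-37600925) was at 2.16, 3.44 and 1.49 FPKM in SLS and at 0.810, 0.894 and 1.75 FPKM in LLS. ZD5 and ZD7 held the lowest ANGPT2 levels, and ZD8 fell within the SLS range, so that ANGPT2 was the only one of the 10 with ZD8 as the highest LLS ovary. The log2 fold change of ANGPT2 was -0.63 (SE 0.33, limma adjusted p = 0.999), and without ZD8 it was -0.82 (limma adjusted p = 0.583). It was -0.41 without ZD3, -0.97 with a pseudocount of 0.1, -1.10 with edgeR and -1.12 with DESeq2.

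The ratio of ANGPT2 to ANGPT1, antagonist to agonist of TEK, was 1.96, 1 and 0.575 in SLS and 0.300, 0.428 and 1.23 in LLS. LLS was lower by a mean log2 difference of -0.95 (exact two-sided permutation p = 0.3, n = 3 per group), and the groups overlapped through ZD8. Without ZD8 the mean log2 difference was -1.54 (exact permutation p = 0.2), and with each ovary left out in turn it ran from -1.54 to -0.49. With 3 ovaries against 3 this test cannot go below 0.1, and with 3 against 2 it cannot go below 0.2.

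TEK, the receptor of both angiopoietins (minus strand, chr1:195938177-196052294), was the steadiest of the 10. It was at 9.42, 10.2 and 8.40 FPKM in SLS and at 9.09, 12.0 and 8.90 FPKM in LLS, a 1.43-fold range over all ovaries. Its log2 fold change was 0.08 (SE 0.26), and 0.15 without ZD8. TIE1, a receptor that pairs with TEK and binds no angiopoietin on its own (minus strand, chr6:167919662-167947253), was at 8.41, 5.99 and 7.79 FPKM in SLS and at 4.48, 8.26 and 5.28 FPKM in LLS. Its groups overlapped, with a log2 fold change of -0.29 (SE 0.30), -0.23 without ZD8, -0.13 without ZD5 and -0.51 without ZD7. The ratio of TIE1 to TEK ran from 0.587 to 0.928 in SLS and from 0.493 to 0.690 in LLS (log2 difference -0.42, and -0.43 without ZD8, exact two-sided permutation p = 0.3 with 6 ovaries).

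PECAM1, an adhesion molecule at the contacts between endothelial cells that leukocytes and platelets also carry (plus strand, chr12:14667643-14723296), was at 87.7, 105 and 89.4 FPKM in SLS. In LLS it was at 49.0, 86.0 and 25.4 FPKM. Its means were 94.0 ± 9.56 and 53.5 ± 30.5 FPKM (SD, n = 3), and every LLS ovary lay below every SLS ovary, ZD7 by a narrow margin. The log2 fold change was -0.96 (SE 0.43), with a limma p of 0.0557 before and 0.999 after adjustment, and an exact two-sided permutation p of 0.1. PECAM1 was 1 of 10 with groups apart, all of it downward, and 3.17% of all tested genes were lower in LLS without overlap (5.12% in either direction). Without ZD8 the log2 fold change was -0.52 (SE 0.29).

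CDH5, the cadherin that joins endothelial cells to each other (plus strand, chr6:27108560-27142145), was at 61.8, 70.6 and 47.0 FPKM in SLS and at 41.2, 55.3 and 17.3 FPKM in LLS. Only ZD7 lay within the SLS range, and the log2 fold change was -0.77 (SE 0.43, limma adjusted p = 0.999). Without ZD8 it was -0.30 (SE 0.27). VWF, the clotting protein that endothelial cells store and release (plus strand, chr5:64516627-64655938), was at 87.1, 67.8 and 56.9 FPKM in SLS and at 89.7, 127 and 42.2 FPKM in LLS. For VWF the LLS ovaries held both the highest and the lowest value, and the log2 fold change was 0.17 (SE 0.43), and 0.61 without ZD8.

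**Figure D1:**
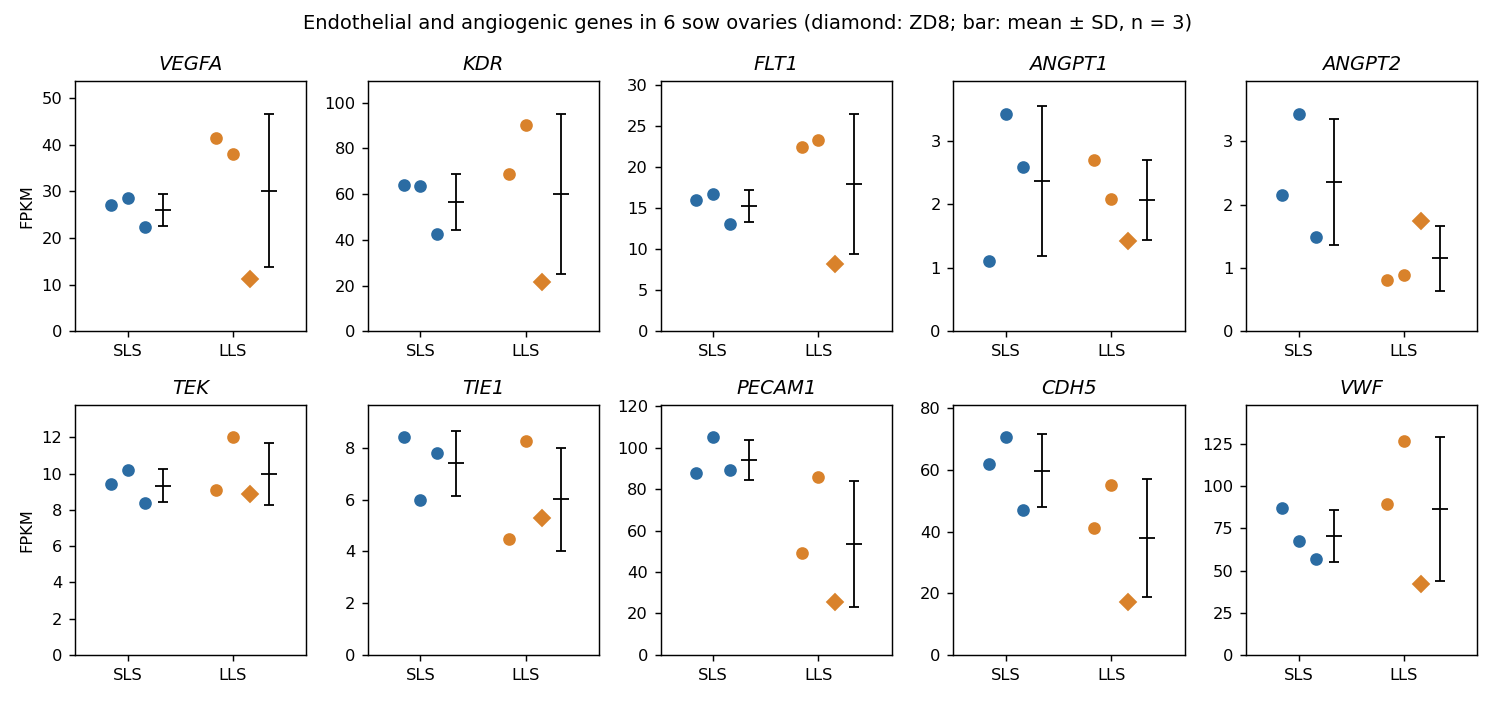
Expression of the 10 genes in FPKM (vertical axis, from 0, a scale of its own in each panel) in the SLS (blue) and LLS (orange) ovaries, 1 point per ovary, with ZD8 as a diamond and the mean ± SD (n = 3) as a bar. ZD8 is the lowest point for VEGFA, KDR, FLT1, PECAM1, CDH5 and VWF, and PECAM1 is the gene whose groups do not overlap.

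None of the 10 genes passed the call used here, a limma adjusted p under 0.05 with an absolute log2 fold change over 1. The same call gave 0 of 12260 genes (0%) in this comparison, while 216 genes (1.76%) had an unadjusted p under 0.05 and none of the 10 was among them. edgeR and DESeq2 on recovered reads called none of the 10 and 0 and 20 of all genes. By the mean of log2(FPKM + 1), the scale of the limma fold changes and of the counts of higher and lower genes given here, 4 of the 10 genes were higher in LLS and 6 were lower, with a median log2 fold change of -0.10 against 0.02 over all genes tested. VEGFA, among the 4, turned to the lower side with quantile normalization and median centring. KDR, among the 6, was higher in LLS by mean FPKM (60.1 against 56.7) and turned to the higher side with array weights, edgeR and DESeq2, and ANGPT1 turned with array weights.

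Without ZD8, 3 of the 10 had an unadjusted limma p under 0.05 (VEGFA, FLT1 and ANGPT2), where 5.88% of all genes did, and none passed the call, which 0.171% of all genes did with limma and none with edgeR (741 genes at an unadjusted p under 0.05). VEGFA, KDR, FLT1 and VWF then lay higher in LLS without overlap, and 7.44% of all genes did so. ANGPT2 and PECAM1 lay lower without overlap, as did 11.7% of all genes. Together 6 of the 10 genes separated, against 19.1% of all genes.

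**Figure D2:**
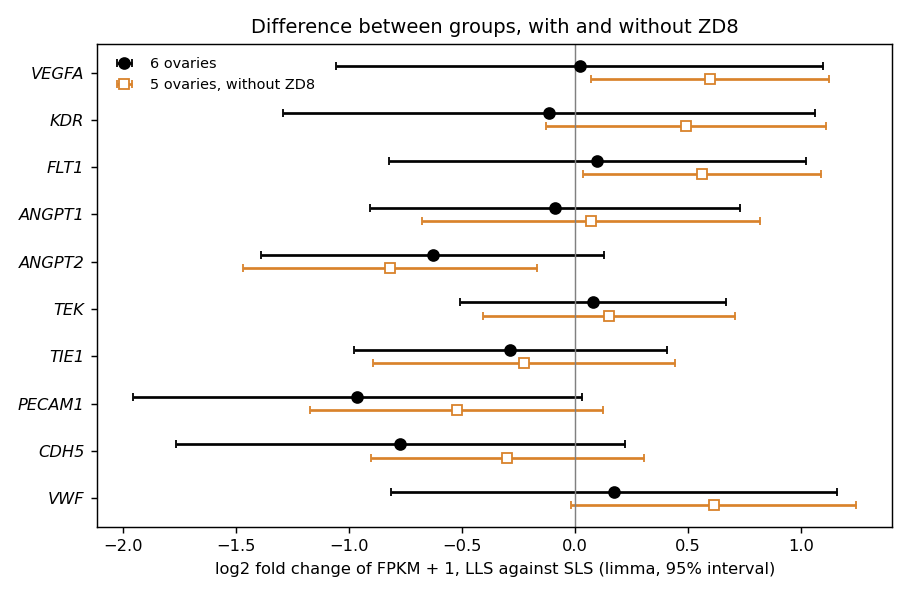
Log2 fold change of FPKM + 1 in LLS against SLS (horizontal axis) for the 10 genes from limma, with 95% intervals, for all 6 ovaries (black circles) and without ZD8 (open squares). Every interval with 6 ovaries includes 0, and without ZD8 those of VEGFA, FLT1 and ANGPT2 do not.

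ZD8 lay below the other 5 ovaries for 6 of the 10 genes (VEGFA, KDR, FLT1, PECAM1, CDH5 and VWF) and above them for none. Over all tested genes, ZD8 was lowest for 26.3% and highest for 44.6%. With median centring of the libraries it lay below for 9 of the 10. The share over all genes was not computed for that setting. The median of the other 5 exceeded ZD8 by 3.45-fold for PECAM1, 3.21-fold for CDH5, 2.97-fold for KDR, 2.55-fold for VEGFA and 2.06-fold for both FLT1 and VWF. For TEK it was 1.06-fold and for ANGPT2 0.85-fold. The low levels in ZD8 went along with the low luteal genes, the smaller depth and the higher theca and oocyte genes given above, and the part of these in the result was not tested. Of 8 leukocyte genes, which summed to 44.5 FPKM in ZD8 and to 20.9 to 34.9 FPKM in the other ovaries, the 7 that passed the filter were each highest in ZD8, while PECAM1 was lowest there. Of 4 platelet genes, PPBP and GP1BA were at no more than 0.124 FPKM in every ovary, GP9 ran from 0.539 to 0.908 FPKM, and ITGA2B was at 2.53 FPKM in ZD8 and at 0.298 to 1.10 FPKM in the others. The red cell genes HBB (28.5 FPKM in ZD8 against 52.9 to 314), ALAS2 (0.215 against 0.459 to 4.57) and AHSP (0 against 0.175 to 0.992) were lowest in ZD8, and the part of blood in the levels of the 10 genes was not tested.

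**Figure D3:**
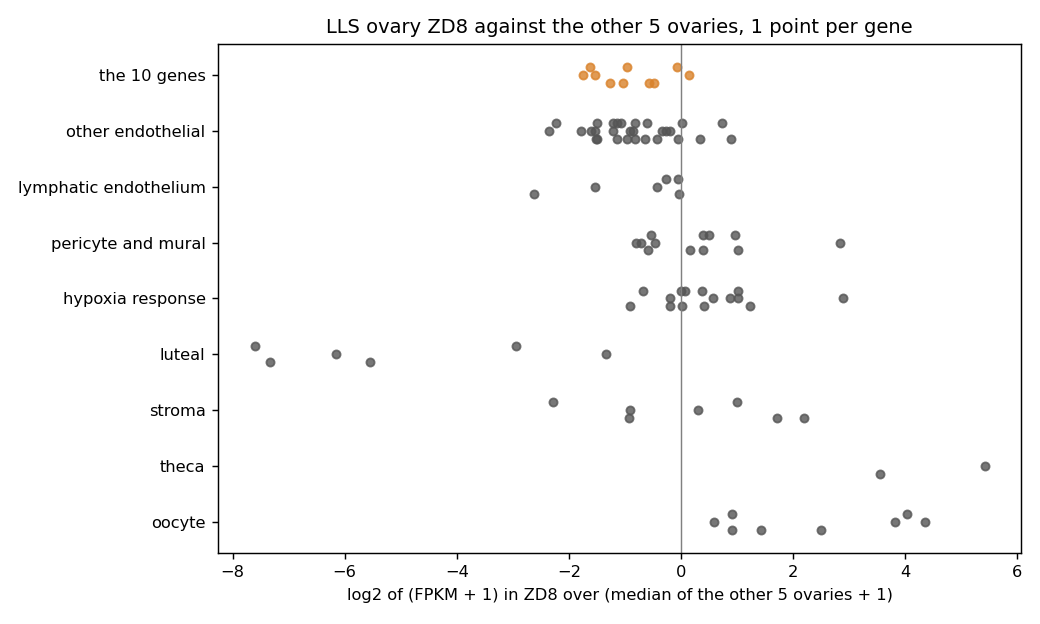
Level in ZD8 relative to the median of the other 5 ovaries, as a log2 ratio of FPKM + 1 (horizontal axis), with 1 point per gene and 1 row per gene list. The 10 genes (orange) and other endothelial genes lie mostly left of 0, most luteal genes lie farther left than these, and theca and oocyte genes lie on the right.

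The levels were next compared with each other within each library, where a scaling factor of the library cancels. This set of ratios was chosen after the levels had been seen, so it is a description with no test. Of the 45 ratios between 2 of the 10 genes, 10 (22.2%) did not overlap between SLS and LLS, where 6.18% of the 74474910 ratios among 12205 tested genes did not. All 10 had VEGFA, KDR, FLT1, TEK or VWF over PECAM1 or CDH5, and all were higher in LLS. The 10 ratios share these 2 denominators and are therefore not independent of each other.

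VWF over PECAM1 was 0.993, 0.645 and 0.636 in SLS and 1.83, 1.48 and 1.66 in LLS. VWF over CDH5 was 1.41, 0.960 and 1.21 in SLS and 2.18, 2.3 and 2.45 in LLS. In both, ZD8 lay with the other LLS ovaries, although its VWF, PECAM1 and CDH5 levels were each the lowest of the 6.

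KDR over CDH5 was 1.04, 0.899 and 0.902 in SLS and 1.67, 1.63 and 1.25 in LLS. FLT1 over CDH5 was 0.259, 0.238 and 0.279 in SLS and 0.547, 0.422 and 0.473 in LLS. VEGFA over PECAM1 was 0.309, 0.273 and 0.249 in SLS and 0.847, 0.442 and 0.443 in LLS. KDR thus exceeded CDH5 in all 3 LLS ovaries, and in SLS only in ZD2. TEK over PECAM1 was 0.107, 0.0971 and 0.0939 in SLS and 0.186, 0.139 and 0.350 in LLS. Its log2 difference was 1.07, and 0.70 without ZD8, and that of TEK over CDH5 was 0.88, and 0.47 without ZD8.

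The ratio of CDH5 to PECAM1 itself overlapped between groups, at 0.705, 0.672 and 0.526 in SLS and 0.841, 0.643 and 0.678 in LLS. Likewise FLT1 to KDR (log2 difference 0.22, and 0.09 without ZD8, exact two-sided permutation p = 0.3 with 6 ovaries) and VEGFA to KDR (0.13, from 0.01 without ZD5 to 0.27 without ZD7, exact p = 0.7) overlapped. VEGFA relative to the geometric mean of the 7 receptors and endothelial markers ran from 0.835 to 0.904 in SLS and from 0.762 to 1.52 in LLS (log2 difference 0.28, from 0.01 without ZD5 to 0.51 without ZD8, exact permutation p = 0.6 with 6 ovaries). No ratio with ANGPT1, ANGPT2 or TIE1 separated the groups over the 6 ovaries. Without ZD8 all 9 ratios with ANGPT2 did, each with ANGPT2 lower in LLS relative to the other gene, by a log2 difference of 0.86 (PECAM1) to 2.01 (VWF). In that setting 22.3% of all ratios of 2 tested genes did not overlap. The 9 ratios share ANGPT2 and are therefore not independent of each other. PECAM1 over ANGPT2 lay apart by a narrow margin, with 60.2 in ZD12 against 60.4 in ZD5.

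**Figure D4:**
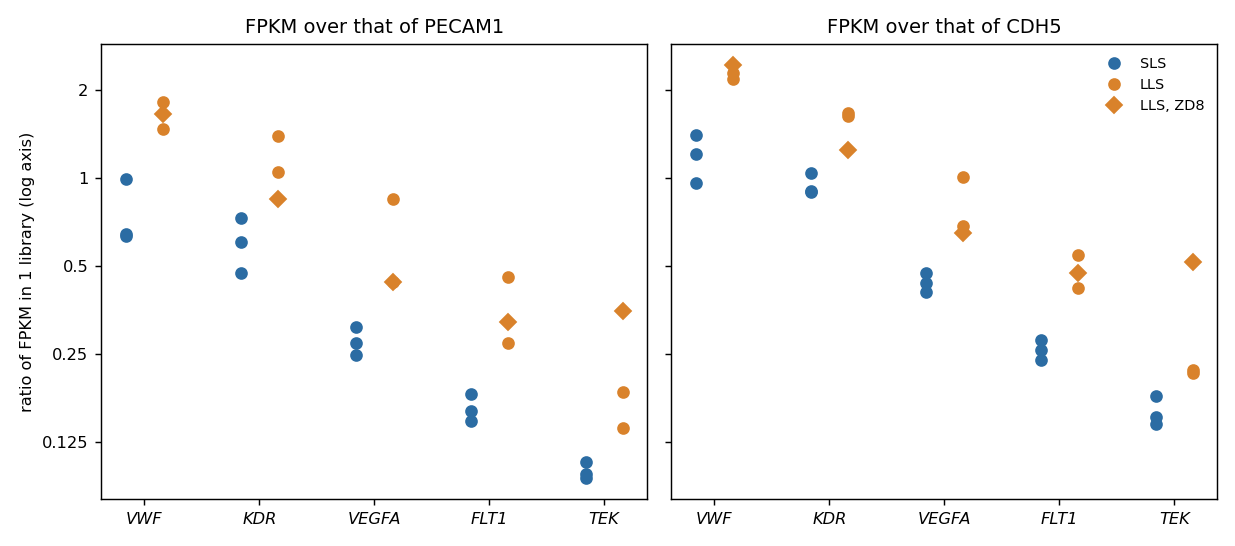
Ratio of FPKM within 1 library (log axis) of VWF, KDR, VEGFA, FLT1 and TEK over PECAM1 (left) and over CDH5 (right), 1 point per ovary, SLS blue and LLS orange, with ZD8 as a diamond. In each of the 10 columns all LLS points lie above all SLS points, as with VWF over PECAM1 at 1.48 to 1.83 against 0.636 to 0.993.

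Correlations of log2(FPKM + 1) over ovaries, which share the libraries and their depth, are given as a description. VEGFA and FLT1 had a Pearson r of 0.99 over 6 ovaries and 0.98 over the 5 without ZD8, and KDR and VWF had 0.94 in both. PECAM1 and CDH5 had 0.96 and 0.82. TEK had 0.50 and 0.52 with VEGFA, 0.60 and 0.65 with FLT1, 0.66 and 0.87 with KDR, 0.73 and 0.78 with VWF, 0.44 and 0.45 with CDH5, and 0.38 and 0.27 with PECAM1. KDR and CDH5 (0.84 and 0.19) and KDR and PECAM1 (0.72 and -0.18) were close only with ZD8 included, and the sign turned without it for VEGFA and PECAM1 (0.60 with it and -0.67 without it) and PECAM1 and VWF (0.52 and -0.28).

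The sequence upstream of PECAM1 is shown beside that of KDR and FLT1, since the ratios of KDR and FLT1 to PECAM1 did not overlap between the groups. The windows are the 250 bases before the first annotated start, 5′ to 3′ on the gene's strand, read from Sscrofa11.1 with RefSeq gene models, and lie at chr12:14667393-14667642 (plus strand), chr8:41856380-41856629 (minus) and chr11:5797096-5797345 (minus). Capitals mark GGAA, the core bound by ETS factors that are active in endothelial cells, and ACGTG, the core of the hypoxia response element, each on either strand (TTCC and CACGT on the other), and the motifs share no bases in these windows.
PECAM1: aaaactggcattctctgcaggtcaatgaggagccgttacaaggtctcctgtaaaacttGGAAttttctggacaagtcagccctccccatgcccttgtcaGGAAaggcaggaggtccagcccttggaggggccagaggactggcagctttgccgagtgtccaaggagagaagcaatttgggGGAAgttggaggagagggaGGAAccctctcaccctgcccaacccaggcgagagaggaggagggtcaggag
KDR: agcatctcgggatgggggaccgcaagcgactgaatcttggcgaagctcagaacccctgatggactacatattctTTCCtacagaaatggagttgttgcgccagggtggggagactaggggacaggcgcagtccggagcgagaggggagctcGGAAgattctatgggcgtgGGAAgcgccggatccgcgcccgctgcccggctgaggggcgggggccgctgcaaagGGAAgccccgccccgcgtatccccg
FLT1: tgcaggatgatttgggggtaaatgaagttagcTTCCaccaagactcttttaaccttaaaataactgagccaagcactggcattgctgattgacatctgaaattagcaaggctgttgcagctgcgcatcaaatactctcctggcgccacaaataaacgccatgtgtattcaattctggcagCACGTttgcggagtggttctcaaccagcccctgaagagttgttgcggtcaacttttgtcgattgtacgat

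GGAA occurred 4 times in the PECAM1 window, 4 times in KDR and 1 time in FLT1. Of 19310 windows of the same length before protein-coding genes, 92.7% held at least 1 and 32.0% at least 4. ACGTG was in the windows of FLT1 and VWF, 2 of the 8 members with a window read here, and in 18.8% of all windows. PECAM1 and KDR held GGAA equally often, and neither held ACGTG. VEGFA has no window because its gene model is incomplete at the 5′ end.

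Genes with closest profiles over the ovaries were ranked by Pearson r of log2(FPKM + 1) among all tested genes. Nearest to the mean profile of KDR, FLT1, TEK, TIE1, PECAM1, CDH5 and VWF was EHD3, an endocytosis protein, with r = 0.9988 over 6 ovaries and 0.9947 over the 5 without ZD8. EHD3 was at 19.4, 18.2 and 13.0 FPKM in SLS and at 13.5, 24.8 and 3.78 FPKM in LLS. Next over 6 ovaries were CMKLR1 (0.9966), a chemerin receptor, and VCAN (0.9924), a matrix proteoglycan.

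The genes nearest to VEGFA were LOC102159522 (0.9981), FBXO42 (0.9973) and ATP11A (0.9970), and without ZD8 they were NTRK3 (0.9992), LOC100621607 (0.9965) and UGT1A6 (0.9958). For ANGPT2 they were NTN4 (0.9828), which encodes a netrin, VAV3 (0.9637) and DHX15 (0.9577). NTN4 was at 5.17, 7.36 and 4.34 FPKM in SLS and at 3.61, 3.82 and 4.69 FPKM in LLS, the order of ANGPT2 in the same ovaries. For ANGPT1 they were SH3BGRL (0.9970), CARNMT1 (0.9969) and AP3M1 (0.9939). Each r is over 5 or 6 points and was picked as the highest of 12260 genes.

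The wider VEGF and angiopoietin system was compared through 14 further genes, of which 13 passed the filter. None passed the call, 2 were higher and 11 lower in LLS on the log scale, and the median log2 fold change was -0.25. Of these 11, ANGPT4 (16.3 against 10.1 FPKM) and NRP2 (24 against 23 FPKM) had the higher mean FPKM in LLS, where ZD8 was the highest ovary for both. NRP1, a co-receptor that presents VEGFA to KDR, was the 1 of 13 without overlap, where 5.12% of all genes did not overlap. It was at 59.3, 61.1 and 53.7 FPKM in SLS and at 62.9, 63.7 and 91.0 FPKM in LLS (log2 fold change 0.30, limma adjusted p = 0.999), and without ZD8 its log2 fold change was 0.12. ANGPT4, a further ligand of TEK named after its values were seen, was at 2.83 and 4.41 FPKM in ZD5 and ZD7, at 5.48 to 12.8 FPKM in SLS and at 41.6 FPKM in ZD8. SVEP1, a matrix protein of vessel walls, likewise lay below SLS in ZD5 and ZD7 (18.6 and 25.2 against 34.6 to 44.9 FPKM) and above it in ZD8 (50.8 FPKM). PLXND1, a semaphorin receptor of endothelial cells, ran from 44.2 to 57.7 FPKM in SLS and from 25.8 to 57.0 FPKM in LLS.

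Among 29 other endothelial genes, none passed the call, 25 were lower in LLS and 4 higher, with a median log2 fold change of -0.43 against 0.02 over all genes tested. Without ZD8, 21 were lower and 8 higher, with a median of -0.16 against -0.10, and 66.0% of all genes were then lower. ZD8 was the lowest ovary for 21 of the 29. The 3 lower without overlap, against 3.17% of all genes, were ECSCR, an endothelial surface protein (10.5, 11 and 12.5 FPKM in SLS, 7.04, 9.78 and 2.35 FPKM in LLS), and the transcription factors SOX7 (2.95 to 4.21 against 1.24 to 2.60 FPKM) and TAL1 (3.04 to 3.29 against 1.6 to 2.56 FPKM). The 3 with the highest mean levels, ENG, CLDN5 and CD34, had log2 fold changes of -0.08, -0.36 and -0.09.

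All 6 lymphatic endothelial genes were lower in LLS on average, with a median log2 fold change of -0.74, or -0.59 without ZD8, and none passed the call. LYVE1, the hyaluronan receptor of lymphatic vessels that some macrophages also carry, was at 27.8, 38.0 and 24.1 FPKM in SLS and at 12.9, 19.6 and 7.65 FPKM in LLS. Its log2 fold change was -1.17 (SE 0.37, limma adjusted p = 0.999), and without ZD8 it was -0.85. PDPN (10.5 to 21.2 against 6.09 to 10.3 FPKM) and PROX1 (6.31 to 11.3 against 4.97 to 6.17 FPKM), the regulator of lymphatic fate, also did not overlap. These 3 of 6 stand against 3.17% of all genes that lay lower without overlap. CCL21, the most abundant of the list, overlapped (201 to 320 against 50.3 to 375 FPKM), as did MRC1 (13.9 to 15.8 against 9.34 to 14.7 FPKM).

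Of 20 tested angiogenic factors and inhibitors, none passed the call with 6 ovaries, 8 were higher and 12 lower. ANGPTL4, a secreted lipase inhibitor, was the most abundant, at 586, 496 and 588 FPKM in SLS and at 324, 545 and 14.8 FPKM in LLS (log2 fold change -1.98, and -0.40 without ZD8). THBS1, an inhibitor of vessel growth, was at 258 to 815 FPKM in SLS and 156 to 292 FPKM in LLS, and the chemokine CXCL12 at 21.2 to 38.7 FPKM and 29.9 to 58.1 FPKM. APLN, which encodes the tip cell peptide apelin, was at 12.7, 15.3 and 11 FPKM in SLS and at 4.77, 7.04 and 1.95 FPKM in LLS (log2 fold change -1.43, SE 0.39, limma adjusted p = 0.999). The tip cell Notch ligand DLL4 (10.5 to 12.0 against 5.65 to 8.40 FPKM), the endothelial receptor NOTCH4 (10.3 ± 0.910 against 6.10 ± 2.25 FPKM) and the vasoconstrictor EDN1 (4.94 to 5.29 against 2.71 to 3.88 FPKM) were also lower without overlap, which made 4 of 20 against 3.17% of all genes. AMOT was the 1 higher without overlap, against 1.95% of all genes (8.53 ± 0.923 against 11.8 ± 1.58 FPKM). EDNRB, an endothelin receptor singled out after its values were seen, was at 14.6, 21.3 and 15.7 FPKM in SLS and at 95.8, 53.4 and 10.2 FPKM in LLS. Its log2 fold change was 1.11 (limma adjusted p = 0.999) and, without ZD8, 2.01 (SE 0.30, limma adjusted p = 0.0445). It was the 1 of 20 called without ZD8, where 0.171% of all genes were. With edgeR on the same 5 ovaries the log2 fold change was 2.22 (adjusted p = 0.0791) and no gene of the table was called. Over 6 ovaries array weights gave 2.01 (limma adjusted p = 0.0596), and over all alternatives the adjusted p ran up to 1. That gave EDNRB the arrangement of VEGFA, with ZD5 and ZD7 on top and ZD8 at the bottom.

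Hypoxia genes, which include regulators and targets that respond with VEGFA to low oxygen, had a median log2 fold change of 0.05 over 13 tested (0.00 without ZD8), and none passed the call. EPAS1, a hypoxia-inducible factor of endothelial cells, was at 122, 123 and 128 FPKM in SLS and at 202, 306 and 111 FPKM in LLS, again with ZD8 lowest. HIF1A ran from 86.0 to 159 FPKM in SLS and from 62.1 to 118 FPKM in LLS, and VLDLR from 97.6 to 126 FPKM and from 73.1 to 128 FPKM. ADM, which encodes the vasodilator adrenomedullin, was the 1 of 13 lower in LLS without overlap, against 3.17% of all genes (10.4 to 11.8 against 6.56 to 9.79 FPKM). Of 11 tested genes of pericytes and other mural cells, none passed the call and none separated the groups with 6 ovaries. Without ZD8, 2 were higher and 4 lower without overlap (19.1% of all genes in either direction), and none passed the call. ACTA2, smooth muscle actin, was at 384 to 1098 FPKM in SLS and 196 to 428 FPKM in LLS (log2 fold change -0.99, and -1.21 without ZD8). RGS5 was at 88.3 to 210 FPKM and 90.0 to 264 FPKM, and PDGFRB at 44.7 to 67.2 FPKM and 56.3 to 79.1 FPKM.

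The small RNA libraries held the endothelial microRNA miR-126, which lies within the gene EGFL7. Its more abundant arm is shown with the seed, bases 2 to 8, in capitals, as listed in the deposited table.
ssc-miR-126-3p: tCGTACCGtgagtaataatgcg

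miR-126-3p was at 86100, 60244 and 28118 RPM (reads scaled to the library total) in SLS and at 68953, 100881 and 21359 RPM in LLS, and its groups overlapped (log2 difference 0.01, exact two-sided permutation p = 1). Across the 6 ovaries its level rose with that of VWF (Pearson r = 0.94, exact permutation p = 0.00556, and Spearman rho = 0.94, exact permutation p = 0.0167) and of KDR (r = 0.94, exact permutation p = 0.00833, and rho = 0.94, exact permutation p = 0.0167). These were 2 of 10 relations computed, 1 per gene, and r was at least as high for 55 of the tested genes (0.449%). Adjusted over the 10 relations by Benjamini-Hochberg, the exact permutation p was 0.0417 for r and 0.0833 for rho, for both genes. For the host gene EGFL7 r was 0.59, and -0.05 without ZD8. Without ZD12 and ZD8, the 2 ovaries farthest from the median of miR-126-3p, r was 0.90 for VWF, 0.75 for KDR and 0.81 for EGFL7.

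For PECAM1 r was 0.57 (rho 0.09), for CDH5 0.74 (rho 0.49) and for VEGFA 0.86 (rho 0.71), and without ZD12 and ZD8 r was 0.08, -0.10 and 0.17. For FLT1 r was 0.89 (rho 0.83), and 0.36 without these 2 ovaries. None of these 4 relations passed the adjustment over the 10. In all 4, r was lower without ZD12 and ZD8, where only 4 points over a narrower range are left. Without ZD8 alone r was 0.69 for VEGFA and 0.75 for FLT1. The gene and small RNA libraries were matched by the ovary names that head the columns of both tables.

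**Figure D5:**
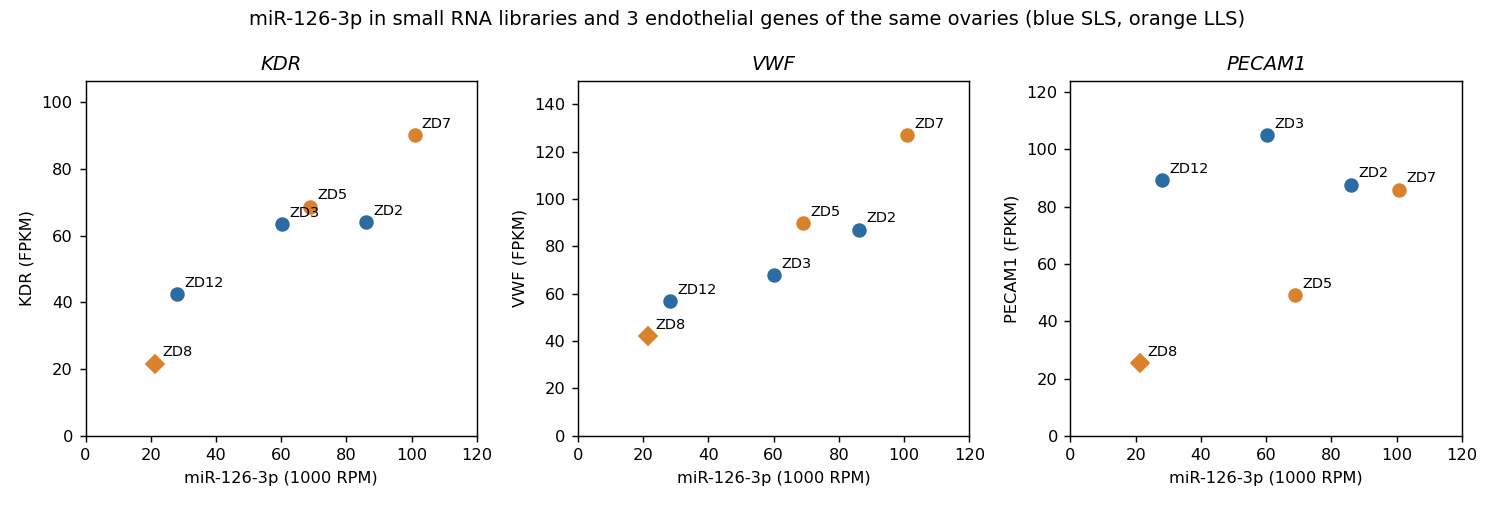
miR-126-3p in units of 1000 RPM (horizontal axis) against KDR, VWF and PECAM1 in FPKM (vertical axis) in the same 6 ovaries, with SLS blue, LLS orange and ZD8 as a diamond. KDR and VWF are lowest in ZD8 and highest in ZD7, as miR-126-3p is, while PECAM1 is high in ZD12 at low miR-126-3p.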

How the data were processed

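Libraries of rRNA-depleted RNA and of small RNA were analysed for 3 SLS and 3 LLS ovaries. For genes, the authors deposited FPKM values from reads that NGSQCToolkit had trimmed and HISAT2 had aligned to Sscrofa11.1. The program that counted reads on genes is not given in the sources used here. For small RNA, the authors deposited each miRNA as RPM, its reads over the library total, which they call TPM, and the labels name BWA for the samples whose titles add "rep" to the ovary name, which were taken to be the small RNA libraries of those ovaries. Whole reads were recovered from the FPKM values with the longest RefSeq transcript for 23477 of 23564 genes above 0 (99.6%, within 0.001 read) and from 100% of 2618 RPM values.

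Genes with at least 1 FPKM in at least 3 libraries were tested with limma 3.58.1 (R 4.3.3, trended variance) on log2(FPKM + 1), with calls at an adjusted p (Benjamini-Hochberg) under 0.05 and a log2 fold change beyond 1 either way. Fold changes on this scale understate the change of genes near 1 FPKM. Single values and ratios were compared by exact two-sided permutation. The scripts were tested on simulated data. Depth, recovered by calculation from the FPKM and RPM values, was 32272803 to 60903268 reads for genes and 3537619 to 9854086 for small RNA.

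Members and gene lists were chosen with earlier results of these data known. The rule for names took all members, the 3 genes of each list with the highest mean, up to 5 whose groups do not overlap, and the 3 nearest profiles. Markers of other cell types are given mainly as sums. EDNRB, ANGPT4, NRP2, AHSP and the platelet genes were named outside the rule, with their values seen. Alternatives covered the pseudocount, the filter, the scaling, array weights, the variance trend, edgeR 4.0.16 and DESeq2 1.42.0 on recovered reads, the thresholds, and each ovary left out. Ratios between all pairs of members and edgeR without ZD8 were added after seeing the data. The window upstream of 1 member is not reported here.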

Additional observations from a re-analysis of the deposited data

How the results depend on the processing

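None of the 10 genes was called under any alternative, with adjusted p-values of 0.353 (ANGPT2) to 1. ANGPT2, TIE1, PECAM1 and CDH5 stayed lower in LLS under all of them. Genes called over the whole table numbered 13 with array weights, 20 with DESeq2, 99 with the unadjusted p and the fold change threshold, and 0 to 21 with 1 ovary left out, the 21 without ZD8, where edgeR called 0. VEGFA turned to a log2 fold change of -0.0491 with quantile normalization and -0.0029 with median centring. KDR turned to 0.5345 with array weights, 0.1450 with edgeR, 0.1344 with DESeq2 and 0.5732 with edgeR without ZD8, and ANGPT1 to 0.1142 with array weights and 0.1325 with edgeR without ZD8. With 1 ovary left out, log2 fold changes ran from -0.30 to 0.60 for VEGFA, -0.52 to 0.49 for KDR, -0.14 to 0.56 for FLT1, -0.40 to 0.14 for ANGPT1, -0.0450 to 0.15 for TEK, -0.17 to 0.61 for VWF, -0.46 to 0.66 for miR-126-3p and -0.28 to 0.52 for miR-126-5p. The cause was not tested. Without ZD8, 26 of the 45 ratios did not overlap (57.8%, against 22.3% of all pairs of genes). No paired analysis was possible because replicate numbers were given only in the order of the samples and no ovary belongs to both groups. The fewest recovered reads behind a value were 237. ANGPT2 had a log2 fold change farther from 0 than PECAM1 with edgeR (-1.10 against -0.76).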
